A study of Mus musculus with 6 samples.

Results

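The purine receptors described here are the products of 10 genes, taken by name from the table of 49568 genes: the ATP-gated channel subunits P2rx2, P2rx3, P2rx4, P2rx5, P2rx6 and P2rx7, the nucleotide receptor P2ry1, and the adenosine receptors Adora1, Adora2a and Adora2b. RNA-Seq was performed on 6 samples from the preBötzinger complex (preBötC), the brainstem site where inspiratory rhythm originates. Each sample pooled 15 neurons aspirated from a slice of a single mouse at postnatal day 2, and the 6 samples came from 6 different animals. All mice were Dbx1CreERT2; Rosa26tdTomato offspring of dams given tamoxifen during gestation. The 3 Dbx1 samples held neurons with tdTomato, which marks descendants of Dbx1-expressing progenitors. The 3 non-Dbx1 samples held neuronal somata without tdTomato. Because Cre was inducible, a descendant of these progenitors that escaped recombination would carry no tdTomato and would be taken as non-Dbx1. Each sample is an average over 15 neurons, in which fewer neurons expressing a gene and less RNA per neuron cannot be told apart.

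Purine receptors respond to extracellular ATP, ADP and adenosine. P2X receptors are cation channels, assembled from 3 subunits, that ATP opens directly, whereas P2Y and adenosine receptors act through G proteins. In the respiratory brainstem, ATP released during hypoxia excites the inspiratory network, in which the Gq-coupled P2Y1 receptor has a known role, and adenosine formed from that ATP slows breathing, mainly through the Gi/o-coupled A1 receptor. The receptors encoded by Adora2a and Adora2b couple to Gs and raise cyclic AMP.

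The deposited values are RPKM, the reads of a gene relative to its exon length and to all reads on genes in that sample. Their steps gave depths of 6464675 to 9432958 reads on genes. The reads behind a value were recovered with the summed exon length of the annotation where that gave whole reads. Otherwise the smallest length from the merged exons up that gave whole reads was used. Reads from amplified cDNA are not independent molecules. The 6 neuronal markers Tubb3, Snap25, Syn1, Eno2, Rbfox3 and Map2 had reads in every sample and a summed RPKM of 993 to 1708. Markers of other cells were also present. The 8 astrocyte markers summed to 37.9 to 71.9 RPKM across Dbx1 samples and 61.4 to 90.4 across non-Dbx1 samples. The 6 endothelial markers summed to 72.2 RPKM in non-Dbx1 replicate 2, of which Cldn5 gave 63.7, and to at most 3.95 in the other samples. The 5 erythroid markers summed to 14058 RPKM and the 9 oligodendrocyte lineage markers to 594.5 in non-Dbx1 replicate 1, against 90.3 to 1198 and 32.6 to 81.8 in the other samples. The 4 cholinergic motor neuron markers Chat, Slc18a3, Slc5a7 and Isl1 summed to 20.4 RPKM in non-Dbx1 replicate 2 and 62.3 in non-Dbx1 replicate 3, and to 1.34 to 8.58 in the other samples.

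RPKM of the purine receptor genes was mostly below 1. Of the 60 values for the 10 genes, 35 were above 0, 22 reached 1 RPKM and 2 reached 5 RPKM. The highest was 7.32 RPKM, for Adora2b in Dbx1 replicate 3. For comparison, the median of the mean RPKM was 1.09 over the 27067 genes with reads in any sample. The means of Adora2b, Adora1, P2rx4 and P2rx2 lay above those of 61.3%, 58.8%, 58.0% and 54.5% of these genes. That of P2ry1 lay above 49.6%, and the other receptor genes were lower. P2rx4, P2ry1 and Adora1 had reads in all 6 samples, P2rx2 in 5, P2rx6 and Adora2b in 4, P2rx7 in 2, P2rx3 and P2rx5 in 1, and Adora2a in none. Between 4 and 7 of the genes had reads in a sample. Dbx1 samples held 20 of the 35 values above 0 and non-Dbx1 samples 15, and 5 of the 35 rested on fewer than 10 reads. Of all 49568 genes, 17364 to 19143 had reads in a Dbx1 sample and 16536 to 18163 in a non-Dbx1 sample. Whether the receptor genes depart from that split was not tested. Averaged over the 10 genes, RPKM was 0.817 across Dbx1 samples and 1.24 across non-Dbx1 samples. Their sums per sample overlapped, at 8.60, 5.63 and 10.3 across Dbx1 samples and 3.59, 15.8 and 17.7 across non-Dbx1 samples.

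**Figure D1:**
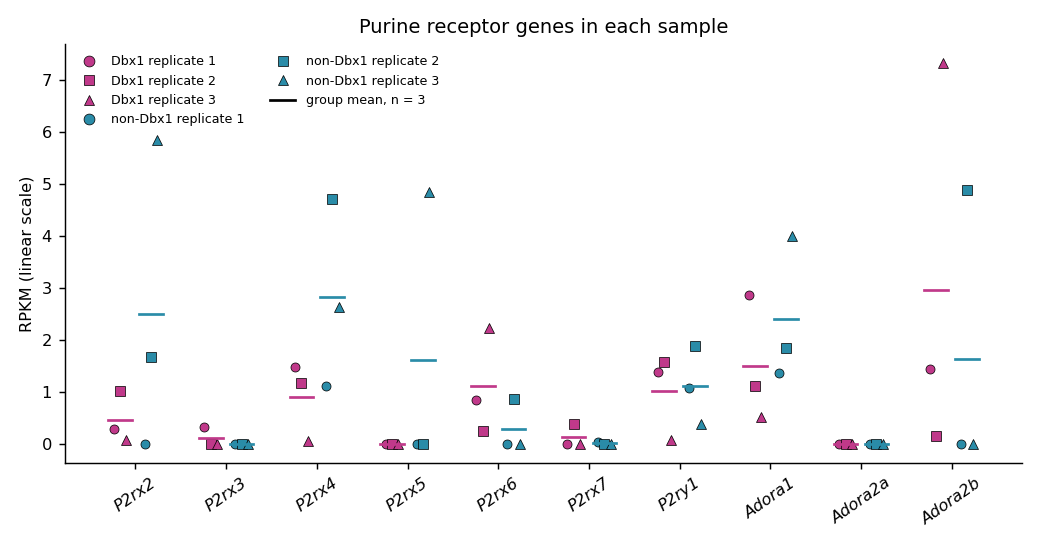
RPKM (vertical axis, linear) of each of the 10 purine receptor genes (horizontal axis) in the 3 Dbx1 samples (magenta) and the 3 non-Dbx1 samples (blue), with the marker shape giving the replicate and the bar the group mean (n = 3). The groups overlap for every gene, and the highest points are 7.32 and 4.88 for Adora2b, 5.84 for P2rx2 and 4.83 for P2rx5.

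Among the P2X genes, P2rx4 was the one with reads in every sample. P2rx4 (ENSMUSG00000029470, chromosome 5 from 122707544 to 122729738 of GRCm38) encodes a calcium-permeable subunit found in neurons and in microglia. RPKM of P2rx4 was 1.47, 1.16 and 0.0565 across Dbx1 samples and 1.11, 4.70 and 2.64 across non-Dbx1 samples, from 4 to 409 reads. Dbx1 replicate 3 was low, with 4 reads, and non-Dbx1 replicates 2 and 3 were above every Dbx1 sample, while non-Dbx1 replicate 1 lay among them. The means were 0.897 ± 0.744 and 2.82 ± 1.80 (SD, n = 3). The log2 fold change (L2FC), the difference between group means of log2(RPKM + 1) and positive where Dbx1 samples were higher, was −0.98 with a 95% interval of −2.39 to 0.42 (limma FDR = 0.936, exact permutation test, p = 0.30). This interval spans no difference. Leaving out Dbx1 replicate 3 gave an L2FC of −0.61, and leaving out non-Dbx1 replicate 2 gave −0.64. At levels this low the added 1 draws the L2FC and its interval toward 0, so they can understate the ratio of RPKM. With 0.1 added in place of 1, the L2FC of P2rx4 over all 6 samples was −1.89.

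P2rx2 (ENSMUSG00000029503, chromosome 5 from 110339812 to 110343212) encodes the subunit of slowly desensitizing ATP-gated channels. RPKM was 0.281, 1.02 and 0.0803 across Dbx1 samples and 0, 1.67 and 5.84 across non-Dbx1 samples, from 0 to 394 reads. Both the lowest and the highest values were in non-Dbx1 samples, and non-Dbx1 replicate 3 alone held 65.7% of the RPKM summed over the 6 samples. In non-Dbx1 replicate 1, where P2rx2 had no reads, 3 reads would have given 0.0648 RPKM. The L2FC was −0.90 with a 95% interval of −2.49 to 0.69 (limma FDR = 0.943, exact permutation test, p = 0.40). Without non-Dbx1 replicate 3 the L2FC of P2rx2 was −0.21. Without non-Dbx1 replicate 1 it was −1.60 (limma FDR = 0.858, unadjusted p = 0.032). In that fit, 935 of the 16578 genes tested had an unadjusted p under 0.05.

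P2rx5, whose product is a subunit with small currents on its own, had reads in a single sample. RPKM of P2rx5 (ENSMUSG00000005950, chromosome 11 from 73160421 to 73172685) was 4.83 in non-Dbx1 replicate 3, from 116 reads, and 0 in the other samples, where 3 reads would have given at most 0.182. The same sample was highest for P2rx2 and for the motor neuron markers Slc18a3, the vesicular acetylcholine transporter, and Isl1, a motor neuron transcription factor. Slc18a3 measured 37.0 RPKM there and at most 7.60 elsewhere, and Isl1 measured 13.3 there and 0 elsewhere. Slc5a7, the choline transporter, had another order, at 7.91 RPKM there, 10.9 in non-Dbx1 replicate 2 and 8.52 in Dbx1 replicate 3. The part of motor neuron RNA in the P2X values was not tested.

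P2rx6 (ENSMUSG00000022758, chromosome 16 from 17561885 to 17577800) encodes a subunit that mostly acts in channels mixed with P2X2 or P2X4. RPKM was 0.833, 0.251 and 2.23 across Dbx1 samples and 0, 0.863 and 0 across non-Dbx1 samples, from 0 to 82 reads. It was detected in all 3 Dbx1 samples and in 1 non-Dbx1 sample, whose value lay within the range of the Dbx1 samples. In the samples at 0, 3 reads would have given at most 0.0879 RPKM. The L2FC was 0.66 with a 95% interval of −0.34 to 1.67 (limma FDR = 0.936, exact permutation test, p = 0.30). Leaving out Dbx1 replicate 3 lowered it to 0.30.

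P2rx7 and P2rx3 had few reads, in 2 samples and 1 sample. P2rx7 (chromosome 5 from 122643911 to 122691432), a receptor best known in microglia and macrophages, measured 0.370 RPKM in Dbx1 replicate 2, from 33 reads, and 0.0392 in non-Dbx1 replicate 1, from 3 reads. P2rx3 (chromosome 2 from 84998583 to 85037462), a subunit typical of sensory neurons, measured 0.329 RPKM in Dbx1 replicate 1, from 11 reads. In the samples at 0, 3 reads would have given at most 0.0392 RPKM for P2rx7 and 0.110 for P2rx3.

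Among 10 microglial markers, Itgam and Tmem119 had no reads in any sample, and the summed RPKM was 0.865, 11.6 and 29.4 across Dbx1 samples and 21.9, 16.4 and 48.2 across non-Dbx1 samples. The complement genes C1qa and C1qb made up most of this sum except in Dbx1 replicate 1, where both were at 0. C1qb reached 31.1 RPKM. For P2rx4, the highest value was in non-Dbx1 replicate 2 and the lowest in Dbx1 replicate 3 (microglial sums of 16.4 and 29.4). P2rx4 measured 2.64 RPKM in non-Dbx1 replicate 3, which had the highest microglial sum (48.2). It measured 1.47 in Dbx1 replicate 1, which had the lowest (0.865). The part of microglial, astrocyte or endothelial RNA in the receptor values was not tested.

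Summed over the 6 P2X genes, RPKM was 2.92, 2.80 and 2.37 across Dbx1 samples and 1.15, 7.23 and 13.3 across non-Dbx1 samples. The Dbx1 samples lay close together, with an SD of 0.289, and the non-Dbx1 samples on both sides of them, with an SD of 6.08. The subunit that led the sum differed, being P2rx4 in 4 samples, P2rx6 in Dbx1 replicate 3 and P2rx2 in non-Dbx1 replicate 3. Non-Dbx1 replicates 2 and 3 had the highest P2X sums and the highest motor neuron marker sums. Non-Dbx1 replicate 2 also had the highest endothelial sum, and non-Dbx1 replicate 3 the highest microglial sum. The motor neuron markers differed among themselves: in non-Dbx1 replicate 2, Slc5a7 gave 10.9 of the 20.4 RPKM and Isl1 was at 0. Within the Dbx1 samples the motor neuron sums were 1.34, 2.18 and 8.58, in the reverse order of the P2X sums.

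**Figure D2:**
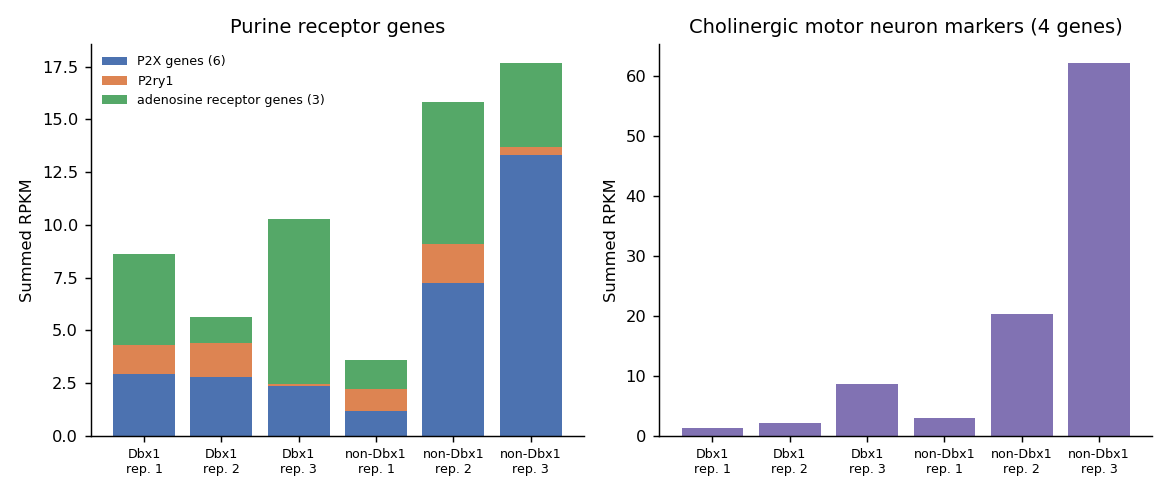
Left, summed RPKM (vertical axis) of the 6 P2X genes, P2ry1 and the 3 adenosine receptor genes, stacked for each sample (horizontal axis). Right, summed RPKM of the 4 cholinergic motor neuron markers in the same samples, on its own scale. Non-Dbx1 replicates 2 and 3 are highest in both panels, at 15.8 and 17.7 for the receptors and 20.4 and 62.3 for the markers. Of the 20.4, Slc5a7 gave 10.9 and Isl1 gave 0.

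P2ry1 (ENSMUSG00000027765, chromosome 3 from 61002795 to 61008982), which encodes the ADP-preferring P2Y1 receptor, had reads in all 6 samples, and its values in the groups overlapped. RPKM was 1.39, 1.58 and 0.0728 across Dbx1 samples and 1.08, 1.88 and 0.376 across non-Dbx1 samples, from 4 to 127 reads. Replicate 3 of each group was the low sample. The means were 1.01 ± 0.820 and 1.11 ± 0.752 (SD, n = 3), with an L2FC of −0.11 and a 95% interval of −1.29 to 1.08 (limma FDR = 0.990, exact permutation test, p = 0.80). A difference of 1 on the log2(RPKM + 1) scale in either direction lies within that interval, so equal expression is not shown. The sign turned when Dbx1 replicate 3 (L2FC 0.30) or non-Dbx1 replicate 2 (0.15) was left out.

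Adora1 was the purine receptor gene with the most reads. Adora1 (ENSMUSG00000042429, chromosome 1 from 134199223 to 134235431), encoding the A1 receptor, measured 2.87, 1.11 and 0.505 RPKM across Dbx1 samples and 1.37, 1.84 and 4.0 across non-Dbx1 samples, from 49 to 526 reads. The highest value was in non-Dbx1 replicate 3 and the lowest in Dbx1 replicate 3, and the values of the groups interleaved. The means were 1.49 ± 1.23 and 2.40 ± 1.41 (SD, n = 3). The L2FC was −0.48 with a 95% interval of −1.88 to 0.91 (limma FDR = 0.960, exact permutation test, p = 0.40). It was −0.17 without non-Dbx1 replicate 3, −0.18 without Dbx1 replicate 3 and −0.86 without Dbx1 replicate 1.

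Adora2b and Adora2a encode the Gs-coupled receptors. RPKM of Adora2b (ENSMUSG00000018500, chromosome 11 from 62248984 to 62266453), which encodes the low-affinity A2B receptor, was 1.43, 0.144 and 7.32 across Dbx1 samples and 0, 4.88 and 0 across non-Dbx1 samples. These values rested on 0 to 94 reads, with 2 reads in Dbx1 replicate 2. Dbx1 replicate 3 and non-Dbx1 replicate 2 were high and the other samples low, so the pattern did not follow the groups. The L2FC was 0.66 with a 95% interval of −1.48 to 2.80 (limma FDR = 0.962, exact permutation test, p = 0.50). It changed sign, to −0.11, without Dbx1 replicate 3, and otherwise ran from 0.23 without either non-Dbx1 replicate 1 or 3 to 1.51 without non-Dbx1 replicate 2.

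Adora2a (ENSMUSG00000020178, chromosome 10 from 75316877 to 75334784), whose receptor is abundant in striatal neurons, was at 0 throughout. Taking its length as 4169 bases, the summed exons of the annotation, the level that 3 reads allow was at most 0.111 RPKM, a limit for counting error alone.

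No purine receptor gene differed between the groups by the test. Over 17614 genes detected (RPKM above 0) in 3 or more samples, limma gave an FDR under 0.1 for 1 gene (0.00568%) and an unadjusted p under 0.05 for 916 genes (5.2%). Of the 10 purine receptor genes, 6 passed that filter, 0 had an FDR under 0.1 and 0 had an unadjusted p under 0.05, with FDR from 0.936 to 0.990. The sign of L2FC was positive for 2 (P2rx6 and Adora2b) and negative for 4, with a median of −0.29 against 0.0089 over all genes tested. P2rx3, P2rx5, P2rx7 and Adora2a did not pass the filter and were not tested by limma. The groups did not overlap for 0 of these 6 genes, against 10.6% of the genes tested. With 3 samples against 3, the exact permutation test could not go below p = 0.10.

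**Figure D3:**
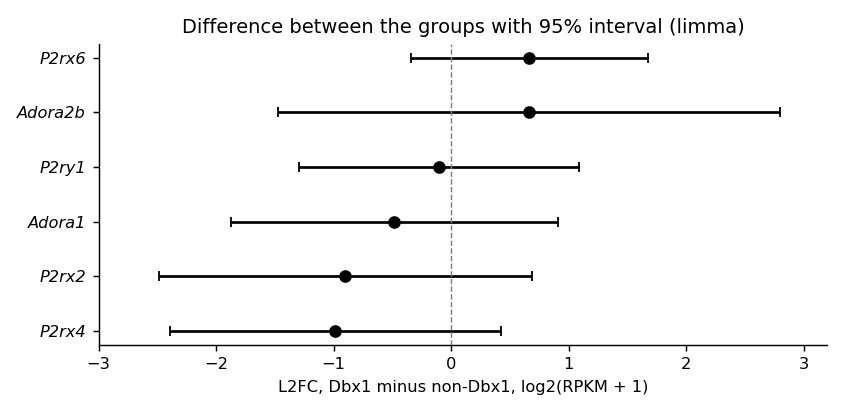
L2FC (horizontal axis, Dbx1 minus non-Dbx1 on log2(RPKM + 1)) of the 6 purine receptor genes that limma tested (vertical axis), with bars for the 95% interval. Every interval crosses 0, from P2rx4 at −0.98 to P2rx6 and Adora2b at 0.66.

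Ordered by mean RPKM over the 6 samples, the genes were Adora2b (2.30), Adora1 (1.95), P2rx4 (1.86), P2rx2 (1.48), P2ry1 (1.06), P2rx5 (0.806), P2rx6 (0.696), P2rx7 (0.0682), P2rx3 (0.0548) and Adora2a (0). The mean of Adora2b was above that of 61.3% of the genes with reads. None of the 9 pairs of neighbours differed beyond their spread within samples, with exact two-sided sign-flip permutation tests on log2(RPKM + 1) giving p from 0.19 to 1.0, or 0.96 to 1.0 after Benjamini-Hochberg adjustment over the 9 pairs. Adora2b exceeded Adora1 in mean RPKM yet in only 2 of 6 samples. Across Dbx1 samples alone Adora2b was highest (2.97), and across non-Dbx1 samples alone P2rx4 was (2.82).

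The order depended on the exon length behind the RPKM. The recovered lengths of P2rx3, P2rx5, P2ry1, Adora1 and Adora2b equalled the sum of all distinct exons in the GENCODE vM21 annotation of GRCm38, in which an exon drawn with several alternative boundaries is counted each time. The recovered length was 13937 bases for Adora1 against 5785 bases once its exons were merged, and 7157 bases for P2rx2 against 2574 merged. The lengths of P2rx2, P2rx4, P2rx6 and P2rx7 matched no sum in this annotation (6640 bases for P2rx2) and were inferred as the smallest that give whole reads, so their reads and merged-exon levels rest on that choice. For Adora2b both were 1845 bases. The recovered length exceeded the merged length by 1.06 times for P2rx5 to 2.78 times for P2rx2 among the genes with reads other than Adora2b. With the same reads over merged exons, the mean was 4.69 for Adora1, 4.12 for P2rx2, 2.69 for P2rx4, 2.30 for Adora2b and 1.95 for P2ry1, so Adora1 came first and Adora2b fell behind P2rx2 and P2rx4. No pair of neighbours differed in that order either (exact permutation test, lowest p = 0.25). Comparisons of 1 gene between samples share its length and were not touched, apart from the pseudocount.

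**Figure D4:**
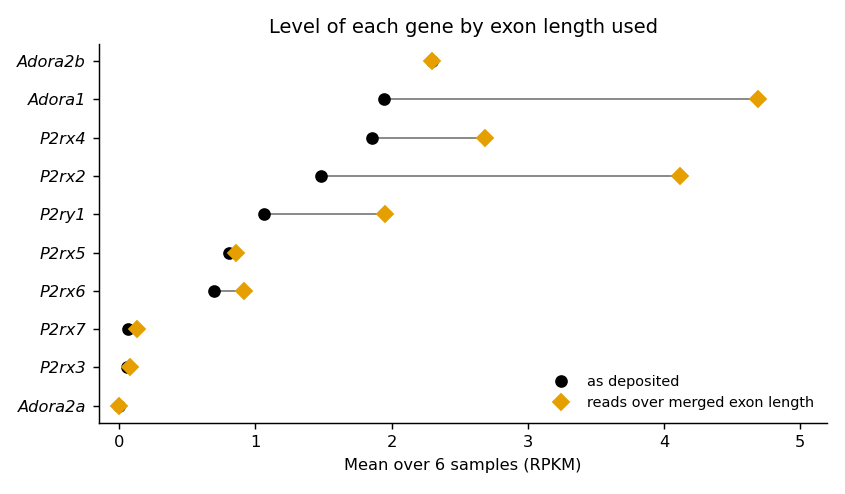
Mean RPKM over 6 samples (horizontal axis) of the 10 purine receptor genes (vertical axis), as deposited (black circles) and with the same reads divided by the merged exon length (orange diamonds). Adora1 moves from 1.95 to 4.69 and P2rx2 from 1.48 to 4.12, past Adora2b, which stays at 2.30.

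Parts of 4 of the genes share exon sequence with a gene on the opposite strand. The shared stretch was 1162 bases of Adora1 with Mybph, 992 bases of P2ry1 with the antisense gene Gm37035, 554 bases of P2rx6 with Slc7a4 and 51 bases of P2rx3 with Ssrp1. P2rx7 shares 119 bases with the microRNA gene Mir8115 on its own strand. The authors counted reads without regard to strand, so reads in these stretches could not be assigned to 1 gene of the pair.

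Across the 6 samples, P2rx6 and Adora2b followed the same order. Their correlation on log2(RPKM + 1) was r = 0.94 (Spearman rho = 1.0, n = 6 samples), the highest of 15 pairs among the 6 genes tested by limma, which had a median r of −0.15 and a lowest of −0.53. Both genes were highest in Dbx1 replicate 3 and at 0 in non-Dbx1 replicates 1 and 3. The pair was singled out after its values were seen, and these libraries are shared by all pairs. Among 8027 genes with at least 1 RPKM in every sample, those most like Adora2b over the 6 samples were Nt5c2 (r = 0.97), a cytosolic nucleotidase, Derl2 (r = 0.96), of endoplasmic reticulum quality control, and Chm (r = 0.95), a Rab escort protein. These are the highest of 8027 values over 6 samples, with Adora2b at 0 in 2 of them, and are given as a description only.

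Other receptors of these families had means of at most 0.562 RPKM over the 6 samples. Of the 8 others (P2rx1, P2ry2, P2ry4, P2ry6, P2ry12, P2ry13, P2ry14 and Adora3), P2ry4 and P2ry13 had no reads, and 2 were tested, with none reaching an FDR of 0.1. P2ry14, a receptor for UDP-sugars, had reads in all 6 samples and the highest mean of the 8 (0.562), at 0.119, 0.0157 and 0.322 RPKM across Dbx1 samples and 2.03, 0.806 and 0.0813 across non-Dbx1 samples (limma FDR = 0.936). P2ry12, which microglia carry, measured 0, 0.855 and 0 and 0.0175, 0.515 and 0.

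Genes that release, degrade and clear the ligands were present at unequal levels. Of 4 ATP release genes, 3 were tested and 0 reached an FDR of 0.1. Panx1, a channel that passes ATP, measured 15.6, 13.8 and 9.95 RPKM across Dbx1 samples and 20.3, 16.3 and 20.7 across non-Dbx1 samples (L2FC −0.53, limma FDR = 0.924). Its groups did not overlap, as was so for 10.6% of all genes tested. Panx2 measured 3.92 to 9.20 and 7.02 to 11.0. Slc17a9, the vesicular nucleotide transporter, had at most 1.06 RPKM, and Calhm1 had no reads.

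Of 9 genes for enzymes that break down extracellular nucleotides, 5 were tested and 0 reached an FDR of 0.1. The highest was Alpl, tissue-nonspecific alkaline phosphatase, at 0, 1.18 and 0 RPKM across Dbx1 samples and 0.0319, 2.94 and 5.50 across non-Dbx1 samples (L2FC −1.20, limma FDR = 0.936). Entpd2, an ectonucleotidase that hydrolyses ATP, measured 1.25, 1.29 and 0 across Dbx1 samples and 0 in all non-Dbx1 samples. With reads in 2 samples, Entpd2 did not pass the filter and was not tested. Nt5e, the ectoenzyme that forms adenosine from AMP, had at most 0.242 RPKM.

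Of 9 genes for nucleoside transport and adenosine clearance, 5 were tested and 0 reached an FDR of 0.1. Slc29a4, a membrane transporter of monoamines and adenosine, was the highest, at 36.9 to 52.8 RPKM across Dbx1 samples and 34.9 to 64.5 across non-Dbx1 samples. Slc29a2, an equilibrative nucleoside transporter, measured 11.0, 27.5 and 34.6 and 18.3, 9.83 and 2.96 (L2FC 1.29, 95% interval −0.14 to 2.73, limma FDR = 0.912). Adk, the kinase that removes intracellular adenosine, ran from 3.63 to 20.9 RPKM across Dbx1 samples and from 1.38 to 29.5 across non-Dbx1 samples.

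All 8 G protein alpha subunit genes had reads in every sample, with means over the 6 samples from 3.36 to 78.6 RPKM. Gnai1, of the Gi class through which A1 receptors act, measured 56.9 to 112 RPKM across Dbx1 samples and 63.4 to 80.4 across non-Dbx1 samples. Gna11, of the Gq class used by P2Y1 receptors, measured 36.5 to 53.1 and 31.0 to 38.4. None of the 8 reached an FDR of 0.1, and L2FC was above 0 for 5 and below 0 for 3.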

How the data were processed

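Per the labels and the paper's methods, the authors amplified cDNA from 15 neurons per sample and aligned single-end reads to mm10 with TopHat2. They sorted the reads with SAMtools and counted them per gene name with HTSeq without strand. The deposited RPKM were computed from exon length and the reads on genes of each sample, without further scaling between samples. The release of the annotation is not given in the sources used here. Depth and reads per gene were recovered from the RPKM steps with GENCODE vM21 exons (GRCm38, the assembly of mm10), which matched 95.4% of names, and detection floors of 3 reads cover counting error only. The authors used DESeq2 on counts. As RPKM are not counts, log2(RPKM + 1) was tested with limma 3.58.1 in R 4.3.3 (eBayes with a mean-variance trend, two-sided, Benjamini-Hochberg FDR, threshold 0.1) over genes detected (RPKM above 0) in 3 or more samples. The test was tested on simulated data. Within-sample order was compared by exact sign flips, whose smallest p is 0.031. Other steps used scipy 1.17.1, pandas 2.3.3, numpy 2.4.6 and matplotlib 3.10.9 under Python 3.11.15.

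All 10 receptors are named, with the 2 highest genes of each pathway list, any with FDR under 0.1 or unadjusted p under 0.05 (none), and the 3 genes most like the highest receptor. Slc17a9, Calhm1, Nt5e, Adk and single cell type markers were named after their values were seen. In the cholinergic motor neuron list, 1 further gene is not reported here. Members and lists were chosen with earlier results of these data known. The alternatives were a pseudocount of 0.1, 2 other filters, size factors, no trend, the replicate block, voom on recovered reads, merged exon length and leaving out each sample. Replicate numbers name separate mice, and p-values measure the spread between these samples.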

Additional observations from a re-analysis of the deposited data

How the results depend on the processing

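Under the 13 alternative fits, 0 purine receptor genes and 0 pathway genes had an FDR under 0.1 in limma, as in the reported fit. At an unadjusted p under 0.05 the receptors numbered 0 except without non-Dbx1 replicate 1, where P2rx2 made 1. There, 935 of the 16578 genes tested had an unadjusted p under 0.05. Over all genes, the count with FDR under 0.1 was 1, and it became 0 with a pseudocount of 0.1, with genes non-zero in at least 1 sample, with the replicate block and with voom on recovered reads, and 3 without the trend, with 974, 777, 819, 756 and 1009 genes at an unadjusted p under 0.05. Leaving out 1 sample gave 0 to 1, the 0 being without non-Dbx1 replicate 3. The samples were treated as unpaired, as they came from different mice. After subtracting group means, the mean correlation was −0.045 for same-numbered samples and 0.022 for differently numbered ones. Subtracting group means holds such correlations near 0 on average, so they cannot settle whether samples were paired. The replicate block changed no call among the receptors.

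Direction held in 74 of 77 L2FC values of the 6 receptors tested. The 2 filters, the fit without the trend and the replicate block cannot change an L2FC, so agreement there was fixed in advance. All alternatives re-used the same samples, so this count is no measure of support for a direction. P2ry1 changed sign to 0.30 without Dbx1 replicate 3 and to 0.15 without non-Dbx1 replicate 2, and Adora2b to −0.11 without Dbx1 replicate 3. L2FC ranged from −2.34 to −0.61 for P2rx4, −1.60 to −0.21 for P2rx2, −0.90 to −0.17 for Adora1, −0.58 to 0.30 for P2ry1 (−0.38 without non-Dbx1 replicate 3), 0.30 to 3.96 for P2rx6 and −0.11 to 2.75 for Adora2b (1.51 without non-Dbx1 replicate 2), with the values above 1.6 in size under voom or the pseudocount of 0.1. The RPKM filter of at least 1 in at least 3 samples left out P2rx6. In the order of the genes, 0 neighbour pairs had p under 0.05 with either pseudocount or exon length (exact permutation test). In 1 group alone (smallest p 0.25) or with 5 samples (0.0625) that test cannot pass. Adora2b was first in 4 of the 6 orders without 1 sample and Adora1 in 2, those lacking Dbx1 replicate 3 or non-Dbx1 replicate 2.

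Few reads limit these results: 25 of the 60 receptor values were 0.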
